A study of Mus musculus with 12 samples.

Results

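The transcripts of fatty acid oxidation and activation were measured as a set of 34 genes in mouse bone marrow-derived macrophages, out of 20887 genes named on the array. The set was chosen by function: acyl-CoA synthetases that activate fatty acids, the carnitine system that carries them into mitochondria, and the enzymes of mitochondrial and peroxisomal beta-oxidation. Probes were assigned by their transcript accession, which gave 40 probes, and all 34 genes passed the filter on dim probes that left 13116 genes for testing. The levels are log2 signals relative to the 75th percentile of the same array, so a value of 0 lies at that percentile. A difference of 1 is a doubling of the signal, and values are not comparable between genes because each comes from its own probe.

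Macrophages were grown from marrow of male C57BL6 mice aged 6 to 8 weeks, for 5 to 7 days with M-CSF, which directs progenitors to this lineage. The mice either carried the intact Esrra gene (ERRα+/+) or lacked ERRα (ERRα-/-), and the labels name no promoter or cell type that would restrict the deletion. Each genotype received PBS as solvent control or LPS (lipopolysaccharide, 100 ng/mL), a bacterial membrane component that activates macrophages through TLR4, which made 4 groups of 3 arrays. The duration of LPS and the deleted segment of Esrra are not given in the sources used here, and the labels do not tie replicates to separate mice, so the p-values measure the spread between these samples, which may be technical. Every group had replicate 1 on slide 1 and replicates 2 and 3 on slide 2. In such bulk RNA, fewer cells of a type and less RNA per cell cannot be told apart.

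Beta-oxidation shortens a fatty acid by successive cycles of dehydrogenation, hydration, a second dehydrogenation and thiolytic cleavage, and passes the electrons to the respiratory chain. A fatty acid must first be joined to coenzyme A, and long chains then cross the inner mitochondrial membrane as carnitine esters. Peroxisomes run a related pathway for very long and branched chains. ERRα, an orphan nuclear receptor, is known to drive many of these genes in tissues with a high oxidative demand, often with the coactivators PGC-1α and PGC-1β. Macrophages stimulated with LPS are known to shift from oxidative metabolism towards glycolysis, whereas alternatively activated macrophages are known for high fatty acid oxidation.

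Promoter sequence was examined because ERRα binds a half-site with a fixed extension. RefSeq windows (GRCm38.p6) from 250 bases before to 50 bases after the annotated start were at hand for 29 of the 34 genes. The extended element TNAAGGTCA, searched on both strands, was in 0 of these 29 windows and in 1.43% of 27025 genes. Its shorter core AAGGTCA was in 1 gene, Acadm (3.45% of 29, against 5.38% of all genes), and the half-site AGGTCA, which lies inside both, was in 4 genes (13.8%, against 18.1%). The stretches around these matches are shown 5′ to 3′ on the gene's strand with the matched letters, on either strand, in capitals.
Acadm, chr3:153944866-153944893, minus strand: gTGACCTTcgggctccggtgacactggg
Echs1, chr7:140116479-140116524, minus strand: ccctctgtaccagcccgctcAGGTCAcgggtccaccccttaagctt
Acadvl, chr11:70015490-70015535, minus strand: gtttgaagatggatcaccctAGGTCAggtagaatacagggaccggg
Cpt1a, chr19:3323187-3323232, plus strand: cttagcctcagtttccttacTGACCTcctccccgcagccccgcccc
Counted from the start (-1 is the base before it), the match began at -249 in Acadm, at the edge of the window, at -83 in Echs1, at -87 in Acadvl and at -94 in Cpt1a. The direct repeat AGGTCANAGGTCA, the type read by PPAR receptors, was in 0 of the 29 windows and in 0.0481% of genes. The GC box GGGCGG was in 24 of 29 (82.8%, against 38.2% of all genes). The 27025 genes were not limited to those that passed the filter on dim probes, as the 34 did. Whether other genes that passed it share this excess was not tested. A match in this window is a description of its letters, and elements elsewhere in the loci were not searched.

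Signal quality was even on 10 arrays, where spots of the same probe varied by 3.80% to 4.80% (coefficient of variation), but it was poorer on ERRα+/+ PBS replicate 2 (13%) and replicate 3 (8.44%). Between 45.3% and 56.7% of probes per array exceeded background clearly, with 0 saturated spots. Of the 34 genes 32 were above background on all 12 arrays, and Crat and Ehhadh passed the filter through their brighter groups. Of 8 macrophage markers 7 were on the array and all 7 were above background on every array, with a summed linear level of 710 to 1249 in ERRα+/+ PBS, 1320 to 1559 in ERRα+/+ LPS, 973 to 1367 in ERRα-/- PBS and 1392 to 1703 in ERRα-/- LPS. In the same group order, 6 of 6 dendritic cell markers on the array summed to 1.72 to 3.02, 6.64 to 7.63, 0.746 to 5.29 and 5.57 to 19.9, with Xcr1 not above background on any array. The 6 stromal and endothelial markers, all above background on every array, summed to 2.36 to 5.09, 6.57 to 11.1, 1.59 to 1.82 and 4.73 to 9. For 4 erythroid and megakaryocyte markers, all above background on every array, the sums were 63.8 to 101, 122 to 176, 55 to 59.2 and 86.6 to 93, and for 6 of 7 neutrophil markers on the array they were 258 to 377, 225 to 451, 198 to 242 and 270 to 422. The 4 mast cell and basophil markers summed to 0.862 to 0.909, 0.742 to 0.886, 0.384 to 0.694 and 0.463 to 1.43, with Fcer1a not above background on any array. The 6 lymphocyte markers summed to 6.7 to 8.06, 7.33 to 7.58, 5.05 to 9.01 and 6.67 to 12.3, with Ncr1 not above background on any array. The macrophage, dendritic, stromal and erythroid sums were higher under LPS in both genotypes without overlap between PBS and LPS arrays, as was the neutrophil sum in ERRα-/- cells. Such sums of linear levels are led by the brightest markers, and single markers were divided. In ERRα+/+ cells 4 of 7 macrophage, 3 of 5 tested dendritic, 2 of 6 stromal and 2 of 4 erythroid markers were higher under LPS. In ERRα-/- cells these numbers were 4 of 7, 3 of 5, 5 of 6 and 4 of 4, with 3 of 6 neutrophil markers higher. The neutrophil, mast cell, erythroid and stromal sums were lower in ERRα-/- than in ERRα+/+ cells under PBS without overlap, and the erythroid sum also under LPS. Their part in the results was not tested.

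Esrra was examined first as the deleted gene. Its probe read 4.34, 4.19 and 4.49 in ERRα+/+ PBS, 5.66, 6.03 and 6.14 in ERRα+/+ LPS, 2.28, 0.026 and -0.058 in ERRα-/- PBS and 4.2, 3.69 and 3.61 in ERRα-/- LPS, replicates 1 to 3 in each group. The ERRα-/- arrays lay below the ERRα+/+ arrays under each treatment, with ERRα-/- PBS replicate 1 above the other two of its group, and LPS arrays lay above PBS arrays in both genotypes. Over both treatments the ERRα-/- level was below the ERRα+/+ level by 2.85 ± 0.36 (model standard error, SE; n = 6 arrays per genotype; adjusted p = 0.0039), and signal remained above background on all ERRα-/- arrays. Whether the probe lies in the deleted segment could not be checked from the sources used here. Under PBS alone the difference was -3.59 ± 0.51 (adjusted p = 0.0217). The threshold was missed when ERRα+/+ PBS replicate 1 (0.0512), 2 (0.11) or 3 (0.0634) was left out, or ERRα-/- PBS replicate 2 (0.12) or 3 (0.109), and without the dim filter (0.064). Under LPS it was -2.11 ± 0.51 (adjusted p = 0.2), and -2.44 within slide 2 (adjusted p = 0.000951). The LPS difference was also called when ERRα-/- PBS replicate 1, which does not enter its means, was left out (0.00494).

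The response to LPS asks how activation of the macrophage changes these transcripts, with and without ERRα. Most of the pathway fell: in ERRα+/+ cells 20 of 34 genes fell, 4 rose and 10 did not pass the threshold (adjusted p under 0.05 over all 13116 genes). Of all genes tested, 24.2% fell, 21.8% rose and 46% were called in either direction. In ERRα-/- cells 21 genes fell, 5 rose and 8 did not pass, against 25.6% and 24.9% of all genes in the 2 directions and 50.5% in either. The median log2 difference of the 34 genes was -0.79 in ERRα+/+ and -0.69 in ERRα-/- cells, beside -0.000155 and 0.0393 over all genes tested. Quantile normalization lowered the median of all genes to -0.14 and -0.15 and that of the 34 to -0.96 and -1.06. At that setting 22 of the 34 fell and 3 rose in ERRα+/+ cells, against 28.4% and 18.4% of all genes. In ERRα-/- cells 23 fell and 2 rose, against 30.1% and 20.1% of all genes. The 20 genes that fell in ERRα+/+ cells were all among the 21 that fell in ERRα-/- cells (100% of the first and 95.2% of the second list), with Slc25a20 the other one. The 4 that rose, Acsl1, Acsl5, Eci2 and Acaa1a, rose in both genotypes (100% and 80% of the lists), with Acsl4 the fifth in ERRα-/- cells. The 8 genes called in neither genotype were Acad9, Acad10, Acadl, Acadsb, Acadvl, Hadha, Etfa and Etfb.

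**Figure D1:**
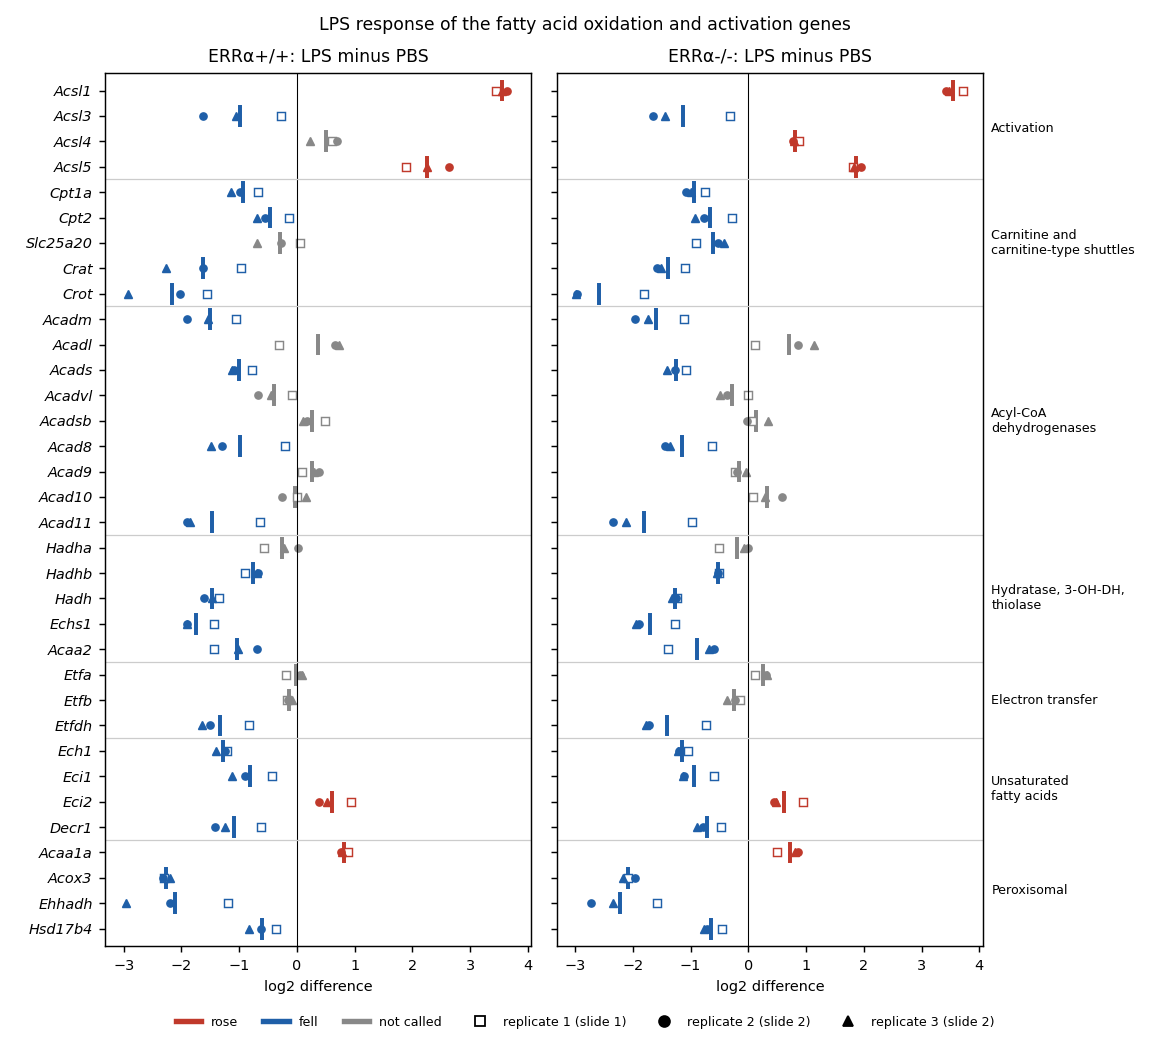
LPS minus PBS differences (log2) of the 34 genes, grouped by role, in ERRα+/+ (left) and ERRα-/- cells (right). Vertical bars are the fitted differences and symbols the same-numbered replicate differences (open square on slide 1); red genes rose, blue genes fell and grey genes were not called, with 20 blue on the left and 21 on the right.

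Of the 4 acyl-CoA synthetases 2 rose and 1 fell in ERRα+/+, and 3 rose and 1 fell in ERRα-/- cells. This and the following counts by role are small and stand beside 46% and 50.5% of all genes called in the 2 genotypes. Acsl1 encodes a long-chain acyl-CoA synthetase of the endoplasmic reticulum and mitochondrial outer membrane. Its levels on replicates 1 to 3 were 2.82, 3.08 and 3.23 in ERRα+/+ PBS, 6.27, 6.71 and 6.79 in ERRα+/+ LPS, 2.75, 3.11 and 3.05 in ERRα-/- PBS and 6.47, 6.53 and 6.53 in ERRα-/- LPS. The LPS arrays of both genotypes stood far above all PBS arrays, and the spread within a group was small beside that gap. The increase was 3.55 ± 0.18 (11.7-fold, adjusted p = 8.02e-07) in ERRα+/+ and 3.54 ± 0.18 (11.6-fold, adjusted p = 1.04e-06) in ERRα-/- cells, in 3 of 3 replicates each. A second Acsl1 probe gave 4.05 and 3.97.

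Acsl5, a related synthetase of the mitochondria and endoplasmic reticulum, read 3.15, 2.23 and 2.7 in ERRα+/+ PBS, 5.04, 4.87 and 4.96 in ERRα+/+ LPS, 3.26, 3.01 and 2.94 in ERRα-/- PBS and 5.07, 4.95 and 4.76 in ERRα-/- LPS. Its LPS arrays stood above its PBS arrays without overlap, and the lowest reading was ERRα+/+ PBS replicate 2. Its increase was 2.26 ± 0.22 in ERRα+/+ (adjusted p = 2.96e-05), and 1.86 ± 0.22 in ERRα-/- cells (adjusted p = 9.86e-05). Acsl4, which prefers arachidonic acid and similar polyunsaturated chains, read 3.49, 3.61 and 4.06 in ERRα+/+ PBS, 4.1, 4.31 and 4.28 in ERRα+/+ LPS, 3.41, 4.06 and 4.1 in ERRα-/- PBS and 4.29, 4.83 and 4.9 in ERRα-/- LPS. In each genotype the LPS arrays lay above its PBS arrays, with the highest values on slide 2 of ERRα-/- LPS. Acsl4 rose by 0.81 ± 0.24 in ERRα-/- cells (adjusted p = 0.0167), while in ERRα+/+ cells the difference was 0.51 ± 0.24 (adjusted p = 0.109; 0.014 with the replicate block). The ERRα-/- call ended under quantile normalization (0.155) and without ERRα-/- PBS replicate 1 (0.0598) or ERRα-/- LPS replicate 2 (0.0621) or 3 (0.0666).

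Acsl3, the synthetase of nascent lipid droplets, was the member of this family that fell, by 0.98 ± 0.34 in ERRα+/+ (adjusted p = 0.0359) and, in ERRα-/- cells, by 1.14 ± 0.34 (adjusted p = 0.0174). Its 12 readings were -0.56, -0.54 and -0.86 in ERRα+/+ PBS, -0.84, -2.16 and -1.91 in ERRα+/+ LPS, -0.20, 0.18 and 0.17 in ERRα-/- PBS and -0.52, -1.47 and -1.28 in ERRα-/- LPS. On slide 1 the fall was small, and the LPS reading of replicate 1 overlapped the PBS range in ERRα+/+ cells. The ERRα+/+ call ended without PBS replicate 1 (0.0811), 2 (0.0953) or 3 (0.055), without LPS replicate 2 (0.142) or 3 (0.12), with normexp correction (0.0768) and without the dim filter (0.0694). The ERRα-/- call ended without PBS replicate 2 (0.0559) or 3 (0.0548) and without LPS replicate 2 (0.0713) or 3 (0.0597).

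Most of the carnitine system fell, with 4 of 5 genes called lower in ERRα+/+ and 5 of 5 in ERRα-/- cells. Cpt1a, the outer membrane transferase that sets the rate of long-chain entry, read 3.95, 3.81 and 3.72 in ERRα+/+ PBS, 3.28, 2.82 and 2.58 in ERRα+/+ LPS, 3.57, 3.49 and 3.39 in ERRα-/- PBS and 2.81, 2.42 and 2.39 in ERRα-/- LPS. In both genotypes all LPS arrays were below all PBS arrays, and replicate 1 was the highest LPS reading. The decrease was 0.94 ± 0.19 in ERRα+/+ (adjusted p = 0.00296) and 0.94 ± 0.19 in ERRα-/- cells (adjusted p = 0.00253). A second Cpt1a probe gave -1.06 and -0.93.

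Crot, the peroxisomal octanoyltransferase that hands shortened chains over to mitochondria, read 1.27, 1.08 and 1.69 in ERRα+/+ PBS, -0.28, -0.93 and -1.23 in ERRα+/+ LPS, 1.27, 1.74 and 1.63 in ERRα-/- PBS and -0.53, -1.23 and -1.36 in ERRα-/- LPS. All LPS arrays lay well below all PBS arrays, and replicate 1 was the highest LPS reading in each genotype. Crot fell by 2.16 ± 0.29 in ERRα+/+ (4.48-fold, adjusted p = 0.000257) and, in ERRα-/- cells, by 2.58 ± 0.29 (5.99-fold, adjusted p = 8.9e-05). Crat, which buffers acetyl-CoA as acetylcarnitine, read -1.99, -2.48 and -2.16 in ERRα+/+ PBS, -2.96, -4.11 and -4.42 in ERRα+/+ LPS, -2.03, -2.14 and -2.09 in ERRα-/- PBS and -3.13, -3.73 and -3.6 in ERRα-/- LPS. These are dim signals, and 2 of the 3 ERRα+/+ LPS arrays were well above background. Crat fell by 1.62 ± 0.33 (adjusted p = 0.00271) and 1.4 ± 0.33 (adjusted p = 0.00538) in the 2 genotypes, without overlap of PBS and LPS arrays.

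Cpt2, the inner membrane transferase that regenerates the acyl-CoA, differed by -0.46 ± 0.16 in ERRα+/+ (adjusted p = 0.0413) and -0.66 ± 0.16 in ERRα-/- cells (adjusted p = 0.00726), with the brighter of its 2 probes. The second probe, dimmer and above background on 10 of 12 arrays, gave -0.34 and -0.63. The mean of both probes was not called (adjusted p = 0.315 and 0.11). The ERRα+/+ call also ended without the dim filter (0.103) and in 9 of 12 fits that each left out 1 array, the exceptions being replicate 1 of ERRα+/+ LPS, ERRα-/- PBS and ERRα-/- LPS. In those 9 fits the adjusted p ran from 0.0513 without ERRα-/- LPS replicate 3 to 0.142 without ERRα+/+ LPS replicate 3. Slc25a20, the carnitine-acylcarnitine translocase, fell by 0.62 ± 0.21 in ERRα-/- cells (adjusted p = 0.0284). In ERRα+/+ cells its difference was -0.30 ± 0.21 (adjusted p = 0.259). Its ERRα-/- call ended without ERRα-/- PBS replicate 1 (0.0997), without ERRα-/- LPS replicate 2 (0.0758) or 3 (0.0795), with normexp correction (0.116) and without the dim filter (0.0653).

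**Figure D2:**
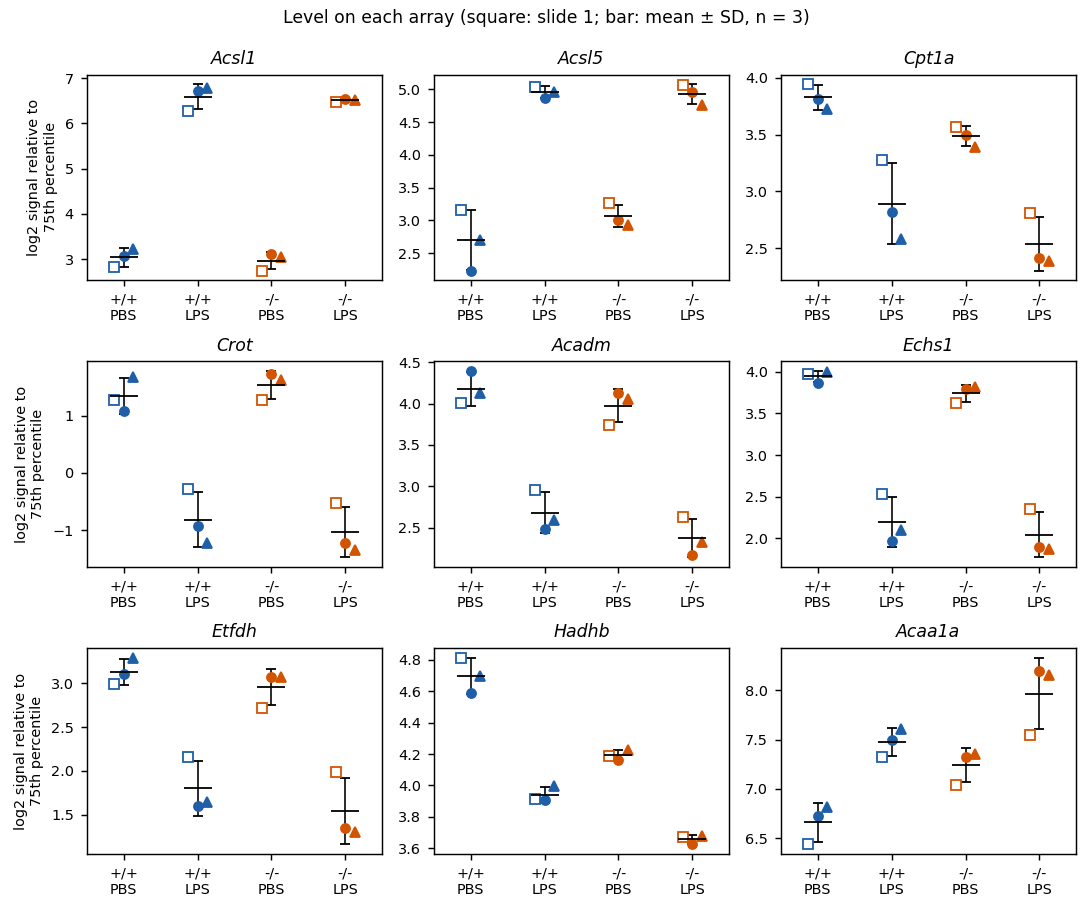
Levels of 9 of the 34 genes on each array, as log2 signal relative to the array's 75th percentile (vertical axis), in the 4 groups of genotype and treatment. Squares are replicate 1 on slide 1, circles and triangles replicates 2 and 3 on slide 2, and bars the mean ± SD of 3; Acsl1, Acsl5 and Acaa1a stand higher under LPS and Cpt1a, Crot, Acadm, Echs1, Etfdh and Hadhb lower.

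The acyl-CoA dehydrogenases, which begin each cycle, divided: 4 of 9 fell in both genotypes and 5 were called in neither. Acadm acts on medium chains. It read 4.01, 4.4 and 4.13 in ERRα+/+ PBS, 2.96, 2.49 and 2.59 in ERRα+/+ LPS, 3.74, 4.13 and 4.05 in ERRα-/- PBS and 2.63, 2.17 and 2.32 in ERRα-/- LPS, with replicate 1 again the highest LPS value of each genotype and no overlap of PBS with LPS arrays. Acadm fell by 1.5 ± 0.19 in ERRα+/+ (2.82-fold, adjusted p = 0.000184) and, in ERRα-/- cells, by 1.6 ± 0.19 (3.04-fold, adjusted p = 0.000123). Acad11, which uses very long chains, read 1.6, 2.18 and 2.01 in ERRα+/+ PBS, 0.97, 0.27 and 0.16 in ERRα+/+ LPS, 1.66, 2.21 and 2.0 in ERRα-/- PBS and 0.68, -0.15 and -0.11 in ERRα-/- LPS. Every LPS array was below every PBS array, and the change was -1.47 ± 0.29 (adjusted p = 0.00243) and -1.81 ± 0.29 (adjusted p = 0.000649). Acads, the short-chain enzyme, fell by 1.00 ± 0.25 and 1.26 ± 0.25 (adjusted p = 0.00888 and 0.00232). Acad8, the isobutyryl-CoA dehydrogenase of valine breakdown, fell by 0.99 ± 0.26 and 1.15 ± 0.26 (adjusted p = 0.00931 and 0.00398). The ERRα-/- Acad8 call ended with normexp correction (adjusted p = 0.0784).

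The 5 dehydrogenases without a call were Acadvl, Acadl, Acadsb, Acad9 and Acad10. Acadvl, the very-long-chain enzyme bound to the inner membrane, differed by -0.40 ± 0.15 (adjusted p = 0.0502; 0.037 with the replicate block) in ERRα+/+ and -0.29 ± 0.15 (adjusted p = 0.132) in ERRα-/- cells. Acadl, the long-chain enzyme, differed by 0.36 ± 0.28 (adjusted p = 0.313) and 0.70 ± 0.28 (adjusted p = 0.0572; 0.0379 with the replicate block), the opposite sign from Acadvl. Within slide 2 both were called in both genotypes, Acadvl lower (adjusted p = 0.0013 and 0.00427) and Acadl higher (0.000494 and 9e-05). Acadvl was also called in both genotypes under the other scalings. Its difference was -0.80 and -0.72 under quantile normalization (adjusted p = 0.00431 and 0.00722), and -0.62 and -0.54 with the percentile over probes above background on all arrays (0.0093 and 0.0156). Acadsb, which oxidises short branched chains, differed by 0.25 ± 0.25 and 0.13 ± 0.25 (adjusted p = 0.426 and 0.692). Acad9, also an assembly factor of respiratory complex I, differed by 0.26 ± 0.18 and -0.16 ± 0.18 (adjusted p = 0.276 and 0.506), and Acad10 by -0.031 ± 0.15 and 0.32 ± 0.15 (adjusted p = 0.878 and 0.093). Acad9 was called higher in ERRα+/+ cells with slide as a block (0.0452), within slide 2 (0.00839) and with normexp correction (0.0299). In ERRα-/- cells the percentile over probes above background on all arrays called Acad9 lower (0.0478). Acad10 was called higher there within slide 2 (0.0217).

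The enzymes of the later steps fell in 4 of 5 cases in each genotype. Echs1, the mitochondrial short-chain enoyl-CoA hydratase, read 3.97, 3.87 and 4.0 in ERRα+/+ PBS, 2.53, 1.96 and 2.09 in ERRα+/+ LPS, 3.63, 3.79 and 3.81 in ERRα-/- PBS and 2.35, 1.89 and 1.87 in ERRα-/- LPS. The PBS arrays kept within a narrow band in each genotype and every LPS array stood below it. Echs1 fell by 1.75 ± 0.19 (3.36-fold, adjusted p = 5.73e-05) and 1.71 ± 0.19 (3.27-fold, adjusted p = 6.9e-05). Hadh, the short-chain 3-hydroxyacyl-CoA dehydrogenase, fell by 1.48 ± 0.24 and 1.28 ± 0.24 (adjusted p = 0.000687 and 0.00141). Acaa2, the mitochondrial 3-ketoacyl-CoA thiolase, fell by 1.05 ± 0.20 and 0.89 ± 0.20 (adjusted p = 0.00209 and 0.0044). The genes in this group that fell did so without overlap of PBS and LPS arrays in either genotype. How often this held among all fallen genes was not counted.

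Hadha and Hadhb encode the 2 subunits of the trifunctional protein, which carries out the last 3 steps for long chains on the inner membrane. Hadhb, the thiolase subunit, read 4.81, 4.59 and 4.69 in ERRα+/+ PBS, 3.91, 3.91 and 4.0 in ERRα+/+ LPS, 4.19, 4.16 and 4.23 in ERRα-/- PBS and 3.67, 3.62 and 3.68 in ERRα-/- LPS. Its replicates lay close together in every group, with no overlap of PBS and LPS arrays. Hadhb fell by 0.76 ± 0.12 in ERRα+/+ (adjusted p = 0.00062) and, in ERRα-/- cells, by 0.53 ± 0.12 (adjusted p = 0.00402). Hadha, the hydratase and dehydrogenase subunit, read 1.63, 0.46 and 0.63 in ERRα+/+ PBS, 1.07, 0.47 and 0.41 in ERRα+/+ LPS, 1.26, 0.39 and 0.28 in ERRα-/- PBS and 0.75, 0.39 and 0.19 in ERRα-/- LPS. Its replicate 1 stood above replicates 2 and 3 in every group, and LPS and PBS arrays overlapped. The Hadha difference was -0.26 ± 0.36 (adjusted p = 0.583) and -0.20 ± 0.36 (adjusted p = 0.67), with 95% intervals from -1.04 to 0.53 and from -0.98 to 0.59. The 2 genes lie head to head with 272 bases between their annotated starts, and the 250 of these bases next to the Hadhb start are shown, with 2 GC boxes in capitals, as most of the stretch between them.
Hadhb, chr5:30155003-30155252 (GRCm38.p6, RefSeq), plus strand: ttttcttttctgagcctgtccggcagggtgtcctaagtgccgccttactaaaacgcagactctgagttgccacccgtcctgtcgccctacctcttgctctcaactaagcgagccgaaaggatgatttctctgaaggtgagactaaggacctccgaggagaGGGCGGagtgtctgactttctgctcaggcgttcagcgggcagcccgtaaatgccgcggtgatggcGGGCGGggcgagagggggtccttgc

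The electron carriers differed among themselves. Etfdh, the ubiquinone oxidoreductase that takes electrons from the flavoprotein, read 2.99, 3.1 and 3.29 in ERRα+/+ PBS, 2.16, 1.6 and 1.65 in ERRα+/+ LPS, 2.72, 3.07 and 3.07 in ERRα-/- PBS and 1.98, 1.35 and 1.3 in ERRα-/- LPS. Its LPS arrays were all below its PBS arrays, with replicate 1 the highest LPS reading in each genotype. Etfdh fell by 1.32 ± 0.23 (adjusted p = 0.000975) and 1.41 ± 0.23 (adjusted p = 0.000621). The subunits of the flavoprotein itself were not called: Etfa differed by -0.017 ± 0.19 and 0.25 ± 0.19 (adjusted p = 0.95 and 0.313). Etfb differed by -0.14 ± 0.12 and -0.25 ± 0.12 (adjusted p = 0.389 and 0.114), and its call depended on the scaling, with adjusted p = 0.00595 and 0.00123 for a fall under quantile normalization.

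Of the 4 auxiliary enzymes for unsaturated chains, 3 fell and Eci2 rose in both genotypes. Ech1, a dienoyl-CoA isomerase, fell by 1.29 ± 0.27 and 1.16 ± 0.27 (adjusted p = 0.00299 and 0.00484). Eci1, the mitochondrial enoyl-CoA isomerase, fell by 0.82 ± 0.23 and 0.95 ± 0.23 (adjusted p = 0.0131 and 0.00573), and its ERRα+/+ call ended without LPS replicate 2 (0.0557) or 3 (0.0583). Decr1, the dienoyl-CoA reductase, fell by 1.1 ± 0.23 and 0.72 ± 0.23 (adjusted p = 0.00288 and 0.0219), and its second probe gave -1.19 and -1.64. The ERRα-/- Decr1 call ended without ERRα-/- PBS replicate 2 (0.0788) or 3 (0.0876) or ERRα-/- LPS replicate 1 (0.0585).

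Eci2, an enoyl-CoA isomerase found in peroxisomes and mitochondria, read 3.78, 4.03 and 4.04 in ERRα+/+ PBS, 4.71, 4.42 and 4.56 in ERRα+/+ LPS, 3.7, 3.96 and 3.93 in ERRα-/- PBS and 4.64, 4.41 and 4.41 in ERRα-/- LPS. Every LPS array lay above the PBS arrays of its genotype, with replicate 1 the highest LPS and the lowest PBS value. It rose by 0.61 ± 0.15 (adjusted p = 0.00724) and 0.62 ± 0.15 (adjusted p = 0.00599). Both calls ended under quantile normalization (adjusted p = 0.264 and 0.329) and with the 75th percentile over probes above background on all arrays (0.0657 and 0.0809). Normexp correction ended the ERRα+/+ call (0.0627). Eci2 and its neighbour Eci3 are close relatives, so their signals may not be fully separate.

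In the peroxisomal branch 3 of 4 genes fell and the thiolase Acaa1a rose, in both genotypes. Acox3, an oxidase of branched chains that starts the peroxisomal cycle, read 4.53, 3.79 and 3.63 in ERRα+/+ PBS, 2.23, 1.48 and 1.43 in ERRα+/+ LPS, 4.2, 3.72 and 3.74 in ERRα-/- PBS and 2.11, 1.75 and 1.56 in ERRα-/- LPS with its brighter probe. Replicate 1 was the highest in each group, and all LPS arrays lay far below the PBS arrays. Acox3 fell by 2.27 ± 0.29 in ERRα+/+ (4.83-fold, adjusted p = 0.000189) and, in ERRα-/- cells, by 2.08 ± 0.29 (4.22-fold, adjusted p = 0.000304). A second Acox3 probe, assigned to the same transcript and above background on all 12 arrays, gave differences of 0.12 and 0.086. The mean of both probes differed by -1.08 and -0.996 and was still called, but the fall rests on 1 of 2 probes.

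**Figure D3:**
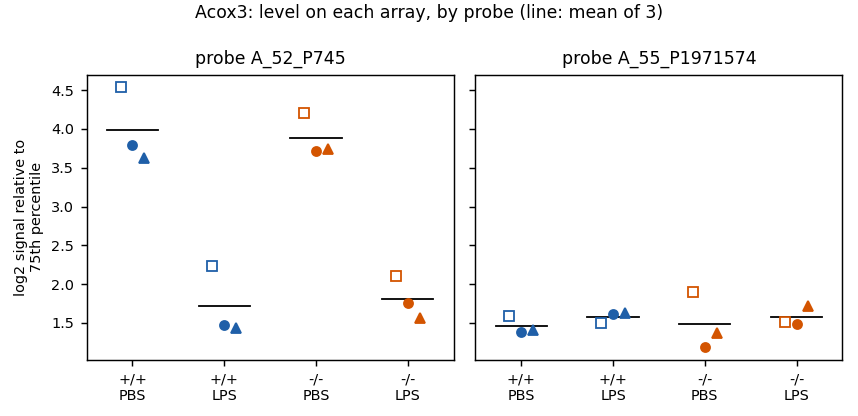
Acox3 on each array by probe, as log2 signal relative to the array's 75th percentile (vertical axis), in the 4 groups of genotype and treatment. Points are replicates (square on slide 1), lines are means of 3; the left probe is lower on all LPS arrays and the right probe is not, and the heights of the 2 probes are not comparable with each other.

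Ehhadh, the peroxisomal bifunctional enzyme for straight chains, read -2.5, -2.84 and -2.97 in ERRα+/+ PBS, -3.7, -5.04 and -5.92 in ERRα+/+ LPS, -2.52, -2.17 and -2.54 in ERRα-/- PBS and -4.1, -4.9 and -4.89 in ERRα-/- LPS. The LPS arrays were near the limit of detection, with 1 of 3 ERRα+/+ and 0 of 3 ERRα-/- LPS arrays well above background. The fitted ERRα+/+ difference was -2.12 ± 0.46 (adjusted p = 0.00383), and its size is uncertain because 2 of the 3 LPS arrays behind it were not well above background. In ERRα-/- cells Ehhadh was at least 3.9-fold lower (adjusted p = 0.00265), a bound against the dimmest signal that counted as above background. Hsd17b4, the bifunctional enzyme for branched and very long chains, fell by 0.61 ± 0.14 and 0.65 ± 0.14 (adjusted p = 0.00535 and 0.00343). Acaa1a, a peroxisomal 3-ketoacyl-CoA thiolase, read 6.44, 6.72 and 6.82 in ERRα+/+ PBS, 7.32, 7.49 and 7.61 in ERRα+/+ LPS, 7.04, 7.33 and 7.35 in ERRα-/- PBS and 7.55, 8.2 and 8.16 in ERRα-/- LPS. Its LPS arrays stood above its PBS arrays in each genotype, and ERRα-/- LPS replicates 2 and 3 were the highest of the 12. The increase was 0.81 ± 0.20 (adjusted p = 0.00755) and 0.73 ± 0.20 (adjusted p = 0.012), and the ERRα-/- call ended under quantile normalization (0.13) and without ERRα-/- LPS replicate 2 (0.0549) or 3 (0.0516). Acaa1a and its neighbour Acaa1b are nearly identical, so which of them the probe reads is uncertain.

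The median fall was smaller on slide 1 than on slide 2. Over the 20 genes that fell in ERRα+/+ cells the median difference was -0.87 for replicate 1 on slide 1, and -1.46 and -1.44 for replicates 2 and 3 on slide 2. The fall was smallest in replicate 1 for 17 of these 20 genes, and for 78.6% of all genes that fell. In ERRα-/- cells the medians over 21 genes were -0.97, -1.27 and -1.36, with replicate 1 smallest for 18 of 21 and for 80.4% of all fallen genes. The 50 LPS calls of the 34 genes (24 and 26) were all kept within slide 2 and when slide was a block. Without both noisy ERRα+/+ PBS arrays, replicates 2 and 3, a setting chosen after seeing the data, 12 of 34 genes fell in ERRα+/+ cells, against 11.4% of all genes. Acsl3, Cpt2, Acads, Acad8, Acad11, Eci1, Decr1 and Hsd17b4 lost their call there, with the remaining array assumed to vary like the other groups. Acad8 moved from -0.99 to -0.40 and Decr1 from -1.1 to -0.69, whereas the differences of the other 6 genes stayed within 1.5 times their reported size, as for Eci1 (-0.82 and -0.88) and Acsl3 (-0.98 and -1.07).

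The comparison of genotypes asks whether cells without ERRα express this pathway differently. Under PBS, 0 of 34 genes were called with limma in the fit without a block, and 0.45% of all genes tested were. Under LPS 0 of 34 were called, against 0.145% of all genes, and averaged over both treatments 0 of 34, against 1.33%. An unadjusted p under 0.05 was reached by 2 genes under PBS, 3 under LPS and 5 on average, shares to be read beside 6.65%, 6.29% and 9.48% of all genes. The median difference (ERRα-/- minus ERRα+/+) was -0.11 under PBS, -0.11 under LPS and -0.0836 on average, beside -0.0188 on average for all genes. With the brightest probe of each gene, single average differences ranged from -0.39 (Hadhb) to 0.62 (Acsl3). The 95% interval of the average difference lay within 1 log2 unit of 0 for 32 of 34 genes, the exceptions being Acsl3 and Ehhadh.

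**Figure D4:**
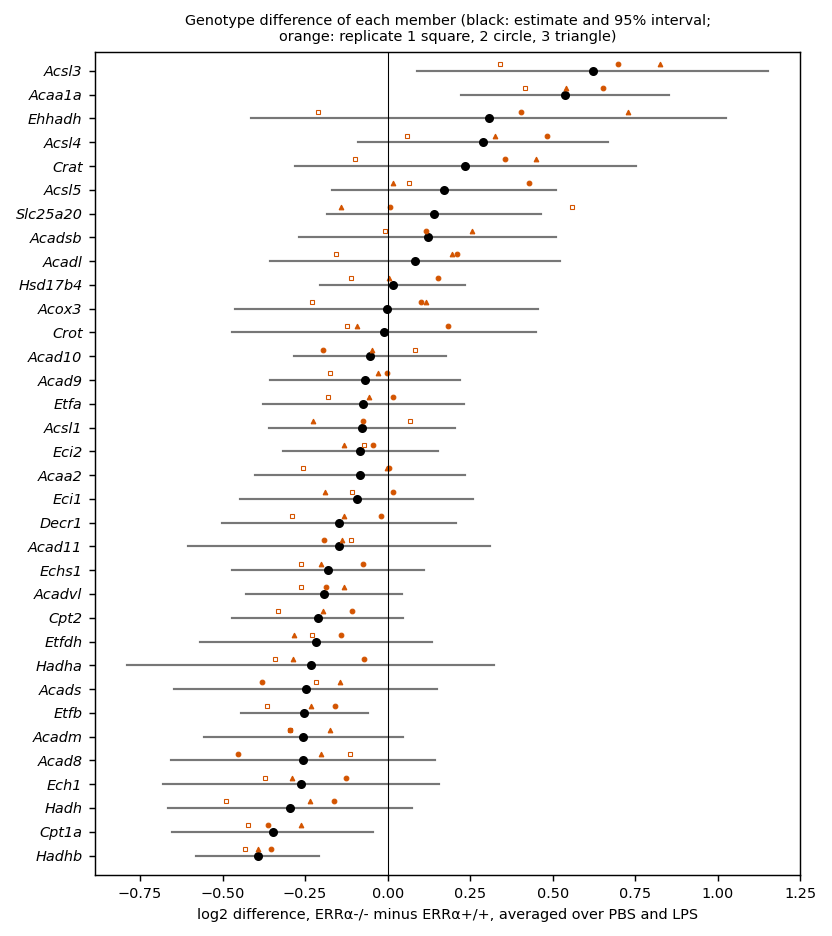
Difference between genotypes (log2, ERRα-/- minus ERRα+/+, averaged over PBS and LPS; horizontal axis) for each of the 34 genes. Black points and lines are the estimate and its 95% interval, and orange symbols the same-numbered replicate differences. Hadhb is the lowest estimate and Acsl3 the highest. In the fit without a block 0 of 34 were called, whereas Hadhb and Acaa1a were called with replicate or slide as a block.

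Hadhb had the smallest p of the 34. The ERRα-/- PBS arrays lay between 4.16 and 4.23 and the ERRα+/+ PBS arrays between 4.59 and 4.81, and under LPS the ERRα-/- arrays were again all lower. The difference was -0.51 ± 0.12 under PBS (adjusted p = 0.147), -0.28 ± 0.12 under LPS (adjusted p = 0.731) and -0.39 ± 0.084 on average (adjusted p = 0.0543). With the replicate block Hadhb was called lower under PBS (adjusted p = 0.04) and on average (0.0155), and with the slide as block likewise (0.0237 and 0.00861).

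Acaa1a went the other way. Its ERRα-/- arrays lay above the ERRα+/+ arrays under PBS without overlap, while under LPS ERRα-/- replicate 1 fell inside the ERRα+/+ range. The difference was 0.58 ± 0.20 under PBS (adjusted p = 0.444), 0.49 ± 0.20 under LPS (adjusted p = 0.694) and 0.54 ± 0.14 on average (adjusted p = 0.126). With the replicate block it was called higher under PBS (0.0492) and on average (0.00947). Leaving out ERRα-/- LPS replicate 1 also gave a call on average (0.0258). The replicate block thus called 2 of 34 genes under PBS and 2 on average, where it called 1.56% and 3.9% of all genes. The slide block called the same 2 genes, with 2.14% and 4.93% of all genes.

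Under LPS the genes with the smallest p were Etfb and Acaa1a. Etfb read 5.55, 5.52 and 5.49 in ERRα+/+ PBS, 5.38, 5.35 and 5.42 in ERRα+/+ LPS, 5.17, 5.39 and 5.41 in ERRα-/- PBS and 5.02, 5.16 and 5.04 in ERRα-/- LPS, with all ERRα-/- LPS arrays below the ERRα+/+ LPS arrays. Its difference was -0.31 ± 0.12 (adjusted p = 0.665). Within slide 2 alone, 3, 7 and 8 of 34 genes were called under PBS, LPS and on average, where 9.71%, 17.4% and 20.5% of all genes were. The 8 on average were Acsl3, Acsl4, Cpt1a, Crat, Acad8, Hadhb, Etfb and Acaa1a. Cpt1a differed by -0.35 ± 0.14 on average (adjusted p = 0.41), Acadm by -0.26 ± 0.14 (0.631) and Acsl1 by -0.077 ± 0.13 (0.954) with all 12 arrays. The second probes of Cpt1a and Acsl1 gave -0.56 and 0.063 on average.

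The LPS response itself was compared between genotypes by the interaction term. None of the 34 genes was called by limma (0% of all genes were), and 0 of 34 reached an unadjusted p under 0.05, against 2.2% of all genes. The smallest p belonged to Acad10 and Acad9, neither of which was called for LPS in the reported fit. Acad10 read 2.97, 3.29 and 2.96 in ERRα+/+ PBS, 2.97, 3.04 and 3.12 in ERRα+/+ LPS, 3.01, 2.67 and 2.85 in ERRα-/- PBS and 3.09, 3.26 and 3.14 in ERRα-/- LPS, so that its LPS arrays stood above its PBS arrays in ERRα-/- but not in ERRα+/+ cells. Acad9 read 1.63, 1.76 and 1.75 in ERRα+/+ PBS, 1.72, 2.14 and 2.05 in ERRα+/+ LPS, 1.61, 2.04 and 1.89 in ERRα-/- PBS and 1.38, 1.85 and 1.85 in ERRα-/- LPS, and its PBS and LPS ranges overlapped in both genotypes. Their interaction estimates were 0.35 ± 0.21 and -0.42 ± 0.26, both with a limma adjusted p of 1. The 95% interval of the interaction lay within 1 log2 unit of 0 for 22 of 34 genes. For Acsl1 the 2 responses differed by -0.0082 ± 0.26, for Cpt1a by -0.0085 ± 0.27 and for Acadm by -0.10 ± 0.27.

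Related genes of fatty acid handling were counted in 7 lists. Of 66 tested, 24 fell and 11 rose with LPS in ERRα+/+, and 24 fell and 12 rose in ERRα-/- cells, with median differences of -0.43 and -0.38. Over all genes 24.2% fell and 21.8% rose in ERRα+/+, and 25.6% fell and 24.9% rose in ERRα-/- cells, with medians of -0.000155 and 0.0393. Among 15 other oxidation genes 7 fell and 2 rose in each genotype. Hacl1, a lyase of peroxisomal alpha-oxidation, fell by 2.44 ± 0.41 and 2.58 ± 0.41 (adjusted p = 0.000919 and 0.000605). Of 7 acyl-CoA thioesterases, which release free fatty acids, 3 fell and 3 rose in ERRα+/+ and 3 fell and 2 rose in ERRα-/- cells. The cytosolic Acot1 fell by 3.91 ± 0.25 and 3.93 ± 0.25 (adjusted p = 2.6e-06 and 3.04e-06), with the near-identical Acot2 not surely separate from it. Of 7 genes for peroxisomal import and biogenesis 3 fell and 1 rose in ERRα+/+, and 4 fell and 1 rose in ERRα-/- cells. The very-long-chain transporter Abcd2, above background on 0 LPS arrays, was at least 4-fold lower in ERRα+/+ (adjusted p = 1.7e-05) and at least 3.59-fold lower in ERRα-/- cells (adjusted p = 1.64e-05).

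In the uptake, droplet and synthesis lists the share of genes called was in each case below that of all genes (46% in ERRα+/+ and 50.5% in ERRα-/- cells). Of 7 uptake and binding genes 2 fell and 1 rose in each genotype. Fabp3, a cytosolic fatty acid carrier, rose by 3.49 ± 0.22 and 3.46 ± 0.22 (adjusted p = 2.6e-06 and 3.13e-06), whereas its relative Fabp4 fell by 1.83 ± 0.24 and 1.01 ± 0.24 (adjusted p = 0.00022 and 0.00598). Of 11 droplet and lipolysis genes 3 fell and 1 rose in ERRα+/+, and 2 fell and 2 rose in ERRα-/- cells. Dgat2, the last enzyme of triglyceride synthesis, rose by 2.44 ± 0.66 (adjusted p = 0.0116) and 3.1 ± 0.66 (adjusted p = 0.00298), and the ERRα+/+ call ended without ERRα+/+ LPS replicate 2 or 3 (0.0513 each). Of 10 synthesis genes 3 fell and 0 rose in ERRα+/+, and 3 fell and 1 rose in ERRα-/- cells, with the desaturase Fads1 lower by 2.64 ± 0.49 and 2.51 ± 0.49 (adjusted p = 0.00158 and 0.00188).

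Of 9 regulators tested, 3 fell and 3 rose in each genotype, where 46% (ERRα+/+) and 50.5% (ERRα-/-) of all genes were called in either direction. Pparg, a nuclear receptor of lipid storage and uptake, fell by 3.1 ± 0.18 and 2.15 ± 0.18 (adjusted p = 1.82e-06 and 1.57e-05). Ppargc1b, which encodes the ERRα coactivator PGC-1β, rose by 2.22 ± 0.36 and 1.43 ± 0.36 (adjusted p = 0.000806 and 0.0081). Esrra itself was higher under LPS by 1.6 ± 0.51 in ERRα+/+ (adjusted p = 0.0251) and 3.08 ± 0.51 in ERRα-/- cells (adjusted p = 0.00075). The ERRα+/+ call ended under quantile normalization (0.0925), with the percentile over probes above background on all arrays (0.0504) and without PBS replicate 1 (0.0538), 2 (0.0715) or 3 (0.0516) or LPS replicate 2 (0.0695) or 3 (0.0768). Acsl6, Acacb, Esrrg, Ppargc1a and Pdk4 did not pass the filter on dim probes.

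Between genotypes, averaged over treatments, 2 of the 66 related genes were higher in ERRα-/- cells besides the lower Esrra, against 1.33% of all genes called in either direction. Acaa1b, the nearly identical neighbour of Acaa1a, was higher by 0.64 ± 0.10 (adjusted p = 0.0111), and the 2 signals may not be separate. Without both noisy ERRα+/+ PBS arrays the Acaa1b difference was 0.569. Elovl6, which elongates saturated chains, was higher by 0.84 ± 0.14 (adjusted p = 0.0179). The Elovl6 call ended without ERRα+/+ LPS replicate 2 (0.0506) or 3 (0.0521), ERRα-/- PBS replicate 2 (0.0639) or 3 (0.0563) or ERRα-/- LPS replicate 3 (0.0545). It also ended without the dim filter (0.0541).

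**Figure D5:**
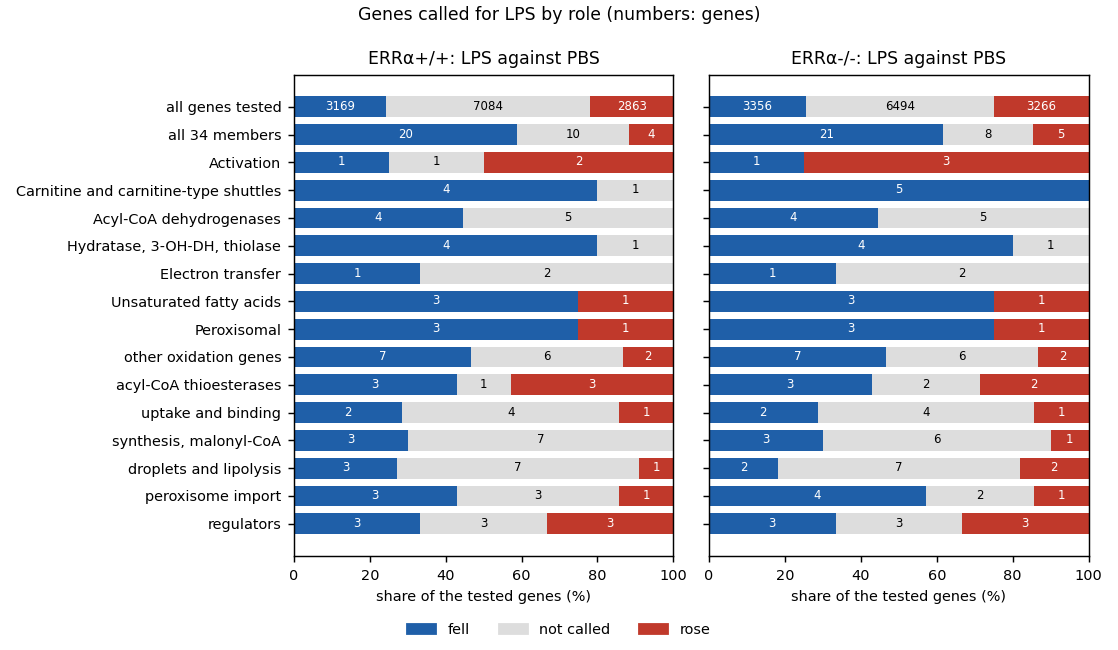
Share of the tested genes of each role or list that fell (blue), rose (red) or were not called (grey) with LPS in ERRα+/+ (left) and ERRα-/- cells (right); the numbers are genes. The bar of the 34 genes holds 20 and 21 that fell, and the top bar gives the same for all 13116 genes.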

How the data were processed

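RNA of 12 macrophage samples was measured on 1-colour Agilent arrays. The labels name one array format for replicate 1 and another for replicates 2 and 3, whereas all 12 files hold the same probes at the same spots. Slides were read from the array identifiers. The deposited intensity values are processed signals of Agilent Feature Extraction, version 11.5.1.1 per the file headers and 9.3.2.1 per the submitters' processing notes, background-subtracted and not normalized between arrays. Deposited flags of 0 or 1 mark spots well above background or saturated, per the file headers. The authors' deposited value table held the same intensity at all 62976 spots.

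Control spots and spots flagged as non-uniform were left out, and spots of a probe averaged. Log2 signals minus the array's 75th percentile were analysed, and 27509 of 55681 probes were named through their accession. A probe was kept if all 3 arrays of any group flagged it well above background, and the brightest stood for its gene. limma 3.58.1 (R 4.3.3), tested on simulated data, fitted 1 mean per group, with Benjamini-Hochberg adjustment over all genes and calls at an adjusted p under 0.05.

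The genes, roles, lists and markers were chosen with earlier results of these data known. 1 listed erythroid marker is not reported here. Array values are given for the 6 largest calls per direction that moved alike in all 3 same-numbered replicates, for Cpt1a, Acadm, Acsl1 and Esrra, and for the 2 smallest p where none was called, with others added. At most 2 genes are named per related list and comparison.

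Same-numbered samples deviated from their group means together (correlations 0.143 to 0.784 over 18 pairs), which met the rule used here for numbers that pair samples. The reported values and calls come from the fit without a replicate block, because the labels name none. The block was an alternative, given beside the results whose call it changes. With it, 1.56% of all genes were called for genotype under PBS and 3.9% on average, against 0.45% and 1.33% without it. Replicate 1 and slide 1 are the same samples, so number and slide cannot be told apart there. On slide 2, which holds replicates 2 and 3, same-numbered samples of different group correlated at 0.143 to 0.652 (12 pairs, median 0.283). Samples of different number and group on slide 2 also correlated (0.129 to 0.556 over 12 pairs, median 0.24). Alternatives were 2 scalings, normexp correction (offset 50, median signal), 2 filters, the mean of probes, slide or replicate as a block, slide 2 alone, the deposited table and leaving out each array. The precision is limited by how many arrays there are.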

Additional observations from a re-analysis of the deposited data

How the results depend on the processing

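The numbers of the 34 genes that fell with LPS kept within 1.5 times the reported 20 and 21 under all but 1 alternative, from 17 to 21 in ERRα+/+ and from 19 to 21 in ERRα-/- cells when 1 array was left out. That 1 was leaving out both noisy ERRα+/+ PBS arrays, chosen after seeing the data, with 12 fallen in ERRα+/+ cells. The numbers that rose were 4 in each of the 12 fits without 1 array in ERRα+/+ cells and 3 to 6 in ERRα-/- cells. In these 12 fits 18.5% to 26.1% of all genes fell and 16.4% to 24.8% rose in ERRα+/+ cells. In ERRα-/- cells 20.6% to 27.2% of all genes fell and 18.6% to 27.6% rose. Within slide 2, 7 and 8 genes rose (35.8% and 37.3% of all genes did), and under quantile normalization 2 rose in ERRα-/- cells (20.1% of all genes did). All 50 LPS calls were kept with the replicate block, with slide as a block, within slide 2 and with the deposited table, and 42 were kept in all 12 fits that left out 1 array. Genotype calls were 0 in the reported fit and, with slide as a block, 2 under PBS and 2 on average. The replicate block likewise called 2 under PBS and 2 on average, both times Hadhb and Acaa1a, and beside them and the LPS results of Acsl4, Acadvl and Acadl it changed no call that the text gives. Within slide 2 the calls were 3 under PBS, 7 under LPS and 8 on average. On average 1 gene, Hadhb, was called under quantile normalization, normexp correction, the filter on all 12 arrays and the mean of probes. Of all genes, 1.31%, 0.976%, 1.23% and 1.39% were called at these settings, in this order. When 1 array was left out, 0 to 1 of the 34 were called on average, against 0.656% to 2.09% of all genes. The LPS difference of Etfa averaged over genotypes reversed to -0.265 under quantile normalization (adjusted p = 0.0424), and the cause was not tested. Dim signals limit Crat and Ehhadh, and the noisy ERRα+/+ PBS arrays limit every comparison that uses them.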
